A study of Mus musculus with 18 samples.

Results

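Potassium channel subunits were followed across hippocampus, heart and skeletal muscle in a study of transgenic mice with TN-XXL, a genetically encoded calcium indicator. The members were all probe sets whose only gene symbol in the platform annotation starts with Kcn, the shared prefix of genes for pore-forming and auxiliary potassium channel subunits. There were 89 such probe sets of 35382 on the array, for 87 of the 18781 genes that are the only symbol of a probe set. Kcnd3 and Kcnh8 had 2 each, and another 2 probe sets that list a Kcn symbol beside a second gene were left out. By symbol, 16 probe sets belonged to the voltage-gated Kv alpha subunits (Kcna to Kcnd), 9 to electrically silent Kv alpha subunits (Kcnf, Kcng, Kcns, Kcnv), 8 to the EAG, ERG and ELK group (Kcnh), 3 to KCNQ, 15 to inward rectifiers (Kcnj), 14 to tandem-pore channels (Kcnk), 11 to calcium- or sodium-activated channels and their relatives (Kcnm, Kcnn, Kcnt, Kcnu) and 13 to auxiliary subunits (Kcnab, Kcne, Kcnip, Kcnrg). Kcnu1 and the Kcnmb beta subunits are among those 11 by symbol, not by how they are activated. The study crossed genotype with tissue in 6 groups of 3 arrays. Wild type mice and transgenic littermates, titled +/+ in the labels, were of strain C57BL/6, and total RNA of each tissue had been labelled with biotin by an Affymetrix whole transcript protocol. The sources used here do not give the age, the promoter that drives the transgene or whether 1 animal gave several tissues. Nothing states that the 3 samples of a group came from separate animals, so p-values measure the spread between these samples, which may be technical.

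Potassium channels let potassium leave or enter a cell along its gradient, which sets the resting potential and ends action potentials. Most Kv, EAG and KCNQ channels open on depolarisation, inward rectifiers and tandem-pore channels hold the resting potential, and calcium-activated channels couple the membrane to intracellular calcium. Silent Kv subunits form no channel alone and alter the gating of Kv partners, and auxiliary subunits change the gating or trafficking of the pore. In heart these currents shape repolarisation, in skeletal muscle they keep fibres from firing repeatedly, and in hippocampus they tune dendritic excitability and firing.

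All values are log2 signals. They are compared between groups for 1 probe set at a time, since the brightness of different probes is no measure of relative abundance. Differences come from limma fitted to all 35382 probe sets, are given with their standard error (SE) and n = 3 arrays per group, and are called at a Benjamini-Hochberg adjusted p under 0.05. Array medians ran from 2.44 to 2.49 in muscle, 2.61 to 2.63 in heart and 3.68 to 3.71 in hippocampus. A mean under the median of its tissue is treated as dim, and the size of a difference that starts or ends there is not read exactly. The labelled tissues carried their markers. Acta1, Ckm, Mylpf, Tnnt3, Actn3 and Myh4 had a mean level of 11.4 to 11.6 on the muscle arrays and 4.24 to 4.61 on the heart arrays. Tnnt2, Tnni3, Myl3, Ryr2 and Actc1 stood at 11.4 to 11.5 in heart, and the 5 measured neuronal markers at 10.2 to 10.4 in hippocampus against 2.49 to 2.74 in both muscles.

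The wild type tissues differed in which members read above the array median, and the hippocampus had the most. Of the 89 probe sets, 30 read above the array median in hippocampus alone, 3 in heart alone (Kcne1, Kcnj5, Kcnv2) and 3 in muscle alone (Kcne1l, Kcng4, Kcnk5). Another 11 were above it in all 3 tissues, 10 in heart and hippocampus, 8 in muscle and hippocampus, and 6 in both muscles. The remaining 18 were above it nowhere. The median differs between the tissues, so these classes do not test a difference between them. Kcne1l was 0.79 ± 0.13 higher in hippocampus than in muscle as deposited, and lower with centred arrays (−0.47) and quantile normalization (−0.51). Kcnk5 did not pass between heart and muscle (−0.34 ± 0.18, adjusted p = 0.15, limma). In total 59 of 89 (66.3%) were above the median in hippocampus, against 49.7% of all probe sets, while 28 (31.5%) were in muscle (49.3% of all) and 30 (33.7%) in heart (49.6% of all).

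**Figure D1:**
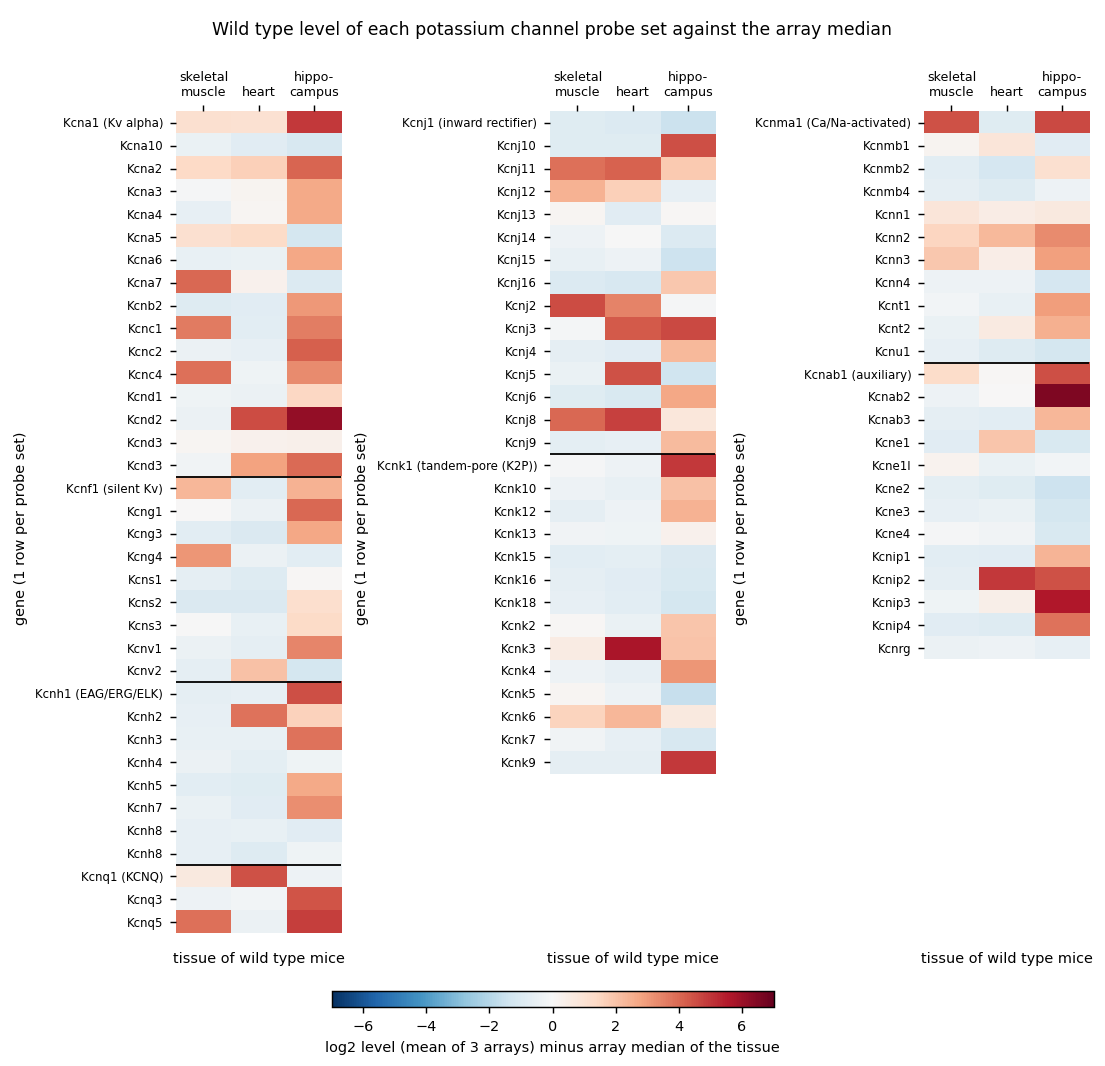
Wild type level of each member in each tissue, as the log2 mean of 3 arrays minus the array median of that tissue (colour scale). Rows are probe sets grouped by family, and red marks signal above the median: 59 of 89 rows are above it in hippocampus, 30 in heart and 28 in skeletal muscle.

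Between hippocampus and skeletal muscle of wild type mice, limma called 78 members higher and 8 lower in hippocampus (86 of 89), where 70.1% and 8.1% of all probe sets were called (78.2% in all). Because the whole array shifts between these tissues (median difference 0.67), the calls were also counted where they held in direction as deposited, with arrays centred on their medians and with quantile normalization. By that rule 50 members (56.2%) were higher in hippocampus than in muscle and 8 (8.99%) lower, against 18.5% and 8.05% of all probe sets. Among probe sets with 1 symbol the shares were 24.6% and 10.9%. With arrays centred 50 were higher and 28 lower, and with quantile normalization 53 and 16. Against heart, 82 were called (76.8% of all probe sets were), 69 higher and 13 lower as deposited (67.3% and 9.46% of all), 54 and 29 with arrays centred, 55 and 17 with quantile normalization, and 54 (60.7%) and 13 (14.6%) under all of these, where 18.1% and 9.46% of all probe sets were called. Of probe sets with 1 symbol, 24.2% were above heart under all scalings and 13.5% below. Differences of at least 2 log2 units under all scalings were found for 39 members above muscle (43.8%, against 6.43% of all probe sets) and 41 above heart (46.1%, against 5.9%), and for 4 below muscle (4.49%, against 1.89%) and 6 below heart (6.74%, against 2.29%). With 1 symbol, 9.04% of probe sets were that far above muscle, 8.18% above heart, 2.8% below muscle and 3.38% below heart.

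In every family some members were higher and some lower in hippocampus than in heart. Under all scalings, hippocampus exceeded heart in 12 of 16 Kv alpha probe sets, 7 of 9 silent, 6 of 8 EAG, ERG and ELK, 2 of 3 KCNQ, 7 of 14 tandem-pore, 7 of 11 calcium- or sodium-activated, 6 of 13 auxiliary and 7 of 15 inward rectifier probe sets. It was lower than heart in 5 inward rectifier and 2 tandem-pore probe sets and in 1 of each other family. Kcnab2, which encodes a cytoplasmic beta subunit of Kv channels, was at 10.17, 10.28 and 10.22 on the wild type hippocampus arrays, 2.69, 2.65 and 2.63 in heart and 2.19, 1.87 and 2.25 in muscle. Its difference of 8.12 ± 0.13 from muscle was 6.86 and 7.61 with centred arrays and quantile normalization. Kcnd2, the A-type channel pore of dendrites, stood at 9.86 ± 0.05 in hippocampus, 7.21 ± 0.13 in heart and 2.02 ± 0.28 in muscle (SD). For both genes the wild type tissues stood apart on every array, and the muscle level was dim.

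The auxiliary subunits of that channel, the calcium-binding KChIP proteins, were high in brain as well. Kcnip3 was at 9.32 ± 0.12 in hippocampus against 3.03 ± 0.13 in heart and 2.16 ± 0.22 in muscle (SD). Kcnip2 reached 8.15 ± 0.12 in hippocampus and 7.57 ± 0.12 in heart, with muscle at 1.84 ± 0.08, and its order between hippocampus and heart turned with the scaling (0.58 ± 0.09 as deposited, −0.50 and −0.22 with centred arrays and quantile normalization). Kcnh1, an EAG channel gene, stood at 8.23 ± 0.08 in hippocampus, with dim means of 2.05 ± 0.09 in heart and 1.81 ± 0.14 in muscle (SD). Kcnq3, a subunit of the M-current that restrains repetitive firing, differed from muscle by 6.02 ± 0.09.

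Resting conductances of neurons and glia followed. Kcnk9, a tandem-pore leak channel gene, was at 8.62 ± 0.03 in hippocampus and at 1.98 ± 0.05 and 1.84 ± 0.23 in heart and muscle (SD). Kcnk1, which encodes the leak channel TWIK-1, was at 8.65, 8.63 and 8.61 in hippocampus. The glial inward rectifier gene Kcnj10, whose channel takes up potassium into astrocytes, exceeded muscle by 6.59 ± 0.13 and heart by 6.46 ± 0.13, and its glial partner Kcnj16 stood at 5.57 ± 0.28 against 1.51 ± 0.19 in muscle. Kcnc2, a fast delayed rectifier of interneurons, exceeded heart by 5.85 ± 0.11. In bulk tissue, more cells of a type and more RNA per cell cannot be told apart.

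Heart and skeletal muscle differed in 37 members, where 38.7% of all probe sets were called, 23 higher and 14 lower in heart (25.6% and 13.1% of all probe sets were called in these directions). With centred arrays the split was 19 and 20, with quantile normalization 21 and 18, and under all scalings 19 and 14 (21.3% and 15.7%, against 16% and 13% of all probe sets). Among probe sets with 1 symbol the shares under all scalings were 21.7% and 15.3%. Differences of at least 2 log2 units under all scalings were found for 10 members above and 7 below muscle, or 11.2% and 7.87%, where 1.23% and 1.08% of all probe sets reached that size. Of probe sets with 1 symbol, 1.84% and 1.53% reached it.

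The 6 members with the largest fitted rise from skeletal muscle to heart, of which all but Kcnk3 were dim in muscle, were subunits of the cardiac transient outward, leak and acetylcholine-gated currents, apart from Kcnh2. Kcnip2 was at 7.51, 7.70 and 7.49 in heart and 1.81, 1.93 and 1.78 in muscle. Kcnd2, the pore it accompanies, exceeded muscle by 5.18 ± 0.12. Kcnk3, which encodes the acid-sensitive leak channel TASK-1, stood at 8.24, 8.36 and 8.34 in heart and 2.81, 3.10 and 3.15 in muscle. Both subunits of the channel that acetylcholine opens through G proteins were in this group, with Kcnj5 5.07 ± 0.14 and Kcnj3 4.57 ± 0.10 above muscle. Kcnh2 encodes the pore of the rapid delayed rectifier and stood at 6.42 ± 0.12 in heart and 1.87 ± 0.18 in muscle (SD). Kcnq1, the pore of the slow delayed rectifier, was 3.89 ± 0.12 higher in heart, its partner Kcne1 2.90 ± 0.19 and Kcnd3 3.24 ± 0.09. A second probe set of Kcnd3 was near the median in both tissues, at 2.91 in heart and 2.61 in muscle.

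Skeletal muscle exceeded heart in a different set. Kcnma1, the pore of the large-conductance calcium-activated (BK) channel, was at 7.01, 7.03 and 6.72 in muscle and 1.94, 1.60 and 1.84 in heart. Kcnc1 and Kcnc4, fast delayed rectifiers, stood at 6.08 ± 0.19 and 6.29 ± 0.12 in muscle against 1.89 ± 0.04 and 2.33 ± 0.10 in heart (SD). Kcnq5, a KCNQ channel, was 4.11 ± 0.16 lower in heart, Kcna7 3.55 ± 0.21 and the silent subunit genes Kcng4 and Kcnf1 3.34 ± 0.18 and 2.91 ± 0.28. Of these 7, only Kcna7 was above the array median in heart. The small-conductance channel gene Kcnn3 (−1.22 ± 0.12) and the beta subunit gene Kcnab1 (−1.07 ± 0.09), above it in both tissues, were also lower in heart. Kcna7 and Kcnj2 were also lower in hippocampus than in muscle, at 2.76 ± 0.20 against 6.49 ± 0.14 and 3.61 ± 0.16 against 7.03 ± 0.21 (SD), with both hippocampal levels dim. Kcnc1 and Kcnc4, in contrast, were high in hippocampus too, and whether they exceeded muscle there depended on the scaling (1.21 ± 0.11 for Kcnc1 as deposited, −0.05 and 0.08 with centred arrays and quantile normalization, and 0.73 ± 0.14, −0.53 and −0.43 for Kcnc4).

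Subunits of the ATP-sensitive potassium (KATP) channel were measured with their sulfonylurea receptors, the regulatory partners that bind nucleotides. Kcnj11 was at 6.30 ± 0.14 in muscle, 6.77 ± 0.04 in heart and 5.55 ± 0.17 in hippocampus, and Kcnj8 at 6.48 ± 0.32, 7.41 ± 0.04 and 4.47 ± 0.22 (SD). Abcc9, the receptor of muscle and vessels, was at 9.43 ± 0.17, 9.64 ± 0.03 and 5.11 ± 0.04 in the same order, and Abcc8, the receptor of neurons, at 2.51 ± 0.46, 6.60 ± 0.11 and 7.35 ± 0.10. Abcc8 was close to the array median in muscle and well above the median in both other tissues, whereas Abcc9 followed Kcnj8 in being lowest in hippocampus. The wild type arrays of heart lay above those of hippocampus on every array for Kcnj8, Kcnj11 and Abcc9.

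**Figure D2:**
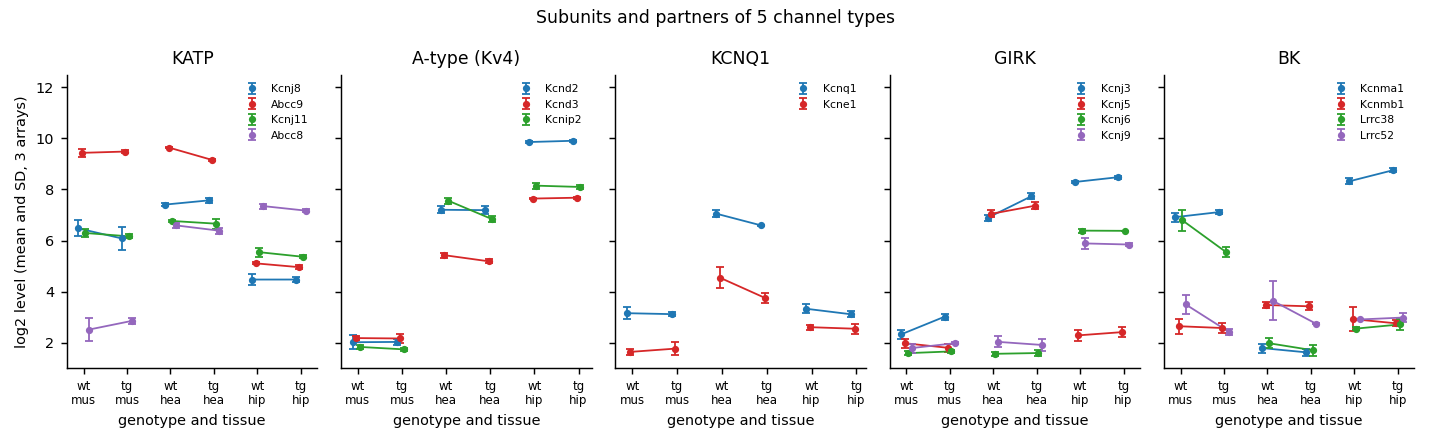
Log2 level of pore subunits, auxiliary subunits and partners of KATP, A-type, KCNQ1, G-protein-gated (GIRK) and BK channels in the 6 groups (points, mean of 3 arrays; bars, SD; lines join the genotypes of a tissue). Within heart, Kcnip2, Kcnq1 and Kcne1 have lower and Kcnj3 and Kcnj5 higher transgenic means, and Lrrc38 is lower in transgenic muscle; levels of different genes are not comparable.

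In skeletal muscle, 11 of the 89 members differed between genotypes, 5 higher and 6 lower in transgenic mice. That is 12.4% of members where 8.15% of all probe sets were called (3.86% higher and 4.3% lower), and the median difference was 0.01 over the members and 0.02 over all probe sets. Many of the array's probe sets name no gene or several: with only those of 1 symbol tested, 13 members and 14.1% of probe sets were called. At an unadjusted p under 0.05 the members stood at 19.1%, as did all probe sets. The members that fell were Kcnf1, Kcng4, Kcnq5, Kcnab1, Kcnj2 and Kcnn2. Those that rose were Kcne1l, Kcnj3, Kcnn3, Kcnu1 and Kcna10.

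Kcnf1, a silent subunit that modifies Kcnb channels, was at 3.90, 4.99 and 5.50 on the wild type muscle arrays and 2.27, 2.22 and 2.31 on the transgenic ones. The wild type arrays were spread over more than 1 log2 unit and the transgenic arrays were close together, under the array median. The difference was −2.53 ± 0.28 (adjusted p = 3.40e-05, limma), and since it ends in dim signal its size is not read exactly. In hippocampus, where wild type arrays stood at 6.14, 6.23 and 5.98, the transgenic arrays were at 6.00, 5.80 and 5.72, and in heart the gene was dim in both genotypes. Kcng4, another silent subunit, was at 5.37, 5.67 and 5.56 in wild type and 3.80, 4.24 and 4.58 in transgenic muscle, with no overlap. It fell by 1.33 ± 0.18, a 2.51-fold difference (adjusted p = 1.98e-04, limma). The other 7 silent subunits did not pass in muscle.

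Kcnq5 was the only KCNQ gene of the 3 measured to be called in muscle. Its arrays were at 6.53, 6.59 and 5.82 in wild type and 5.14, 5.33 and 4.96 in transgenic mice, a 2.25-fold lower level (−1.17 ± 0.16, adjusted p = 1.85e-04, limma). Wild type array 3 was nearest to the transgenic group without reaching it. In hippocampus, where Kcnq5 was at 8.52 ± 0.08 in wild type and 8.56 ± 0.02 in transgenic mice (SD), the genotype difference was 0.04 ± 0.16 and did not pass. Kcnab1, which encodes a beta subunit that speeds inactivation of Kv channels, was at 3.73, 3.65 and 3.86 in wild type and 3.01, 2.98 and 3.19 in transgenic mice. It fell by 0.69 ± 0.09 (adjusted p = 1.82e-04), and its groups did not overlap. Kcnj2, the main inward rectifier of muscle fibres, was at 7.22, 7.06 and 6.80 in wild type and 6.64, 6.33 and 6.39 in transgenic mice, also without overlap, and fell by 0.57 ± 0.14 (adjusted p = 0.0208).

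Among the members that rose, the small-conductance calcium-activated channel gene Kcnn3, which muscle fibres are known to raise when they lose their nerve, was at 4.18, 4.25 and 4.55 in wild type and 5.05, 4.92 and 4.98 in transgenic muscle. The difference was 0.65 ± 0.12 (adjusted p = 0.00232, limma), with the groups apart. Its relative Kcnn2 went the other way, from 3.95, 4.21 and 3.75 to 3.45, 3.58 and 3.73, with a smaller gap between the groups (−0.38 ± 0.11, adjusted p = 0.0447). Kcne1l, an auxiliary subunit also known as Kcne5, was at 2.54, 2.90 and 2.69 in wild type and 3.20, 3.47 and 3.71 in transgenic mice (0.75 ± 0.13, adjusted p = 0.00146). Kcnj3, a G-protein-gated inward rectifier, was at 2.31, 2.50 and 2.17 in wild type muscle, with a dim mean, and at 3.13, 3.02 and 2.91 in transgenic muscle, without overlap. It rose by 0.69 ± 0.10 (adjusted p = 2.53e-04), a size that is not read exactly.

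Kcnu1, known as the sperm channel Slo3, and Kcna10 were dim in wild type muscle (1.89 ± 0.25 and 1.99 ± 0.22, SD) and rose by 0.60 ± 0.15 and 0.51 ± 0.14 (adjusted p = 0.0211 and 0.0407, limma), differences whose size is not read. Of the inward rectifiers that muscle fibres use, Kcnj12 (−0.42 ± 0.17, adjusted p = 0.185) and Kcnj11 (−0.13 ± 0.11, 0.603) did not pass, and neither did the BK pore Kcnma1 (0.20 ± 0.11, 0.39), Kcna7 (−0.19 ± 0.21, 0.724), Kcnc1 (0.08 ± 0.11, 0.779) or Kcnc4 (−0.38 ± 0.14, 0.13). Kcnh2 (0.38 ± 0.11, 0.0506) was just outside the threshold, and its means of 1.87 and 2.25 were dim in both genotypes. It passed with quantile normalization (0.0414), without dim probe sets (0.0229), among probe sets with 1 symbol (0.0258) and without wild type or transgenic array 1 (0.0263 and 0.0174). In the fit to the muscle arrays alone it did not pass (0.303). None of the 14 tandem-pore members passed, with differences of −0.25 to 0.50.

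Several of these calls rest on the spread pooled over tissues. When limma was fitted to the 6 muscle arrays alone, 4 of the 11 passed, namely Kcnf1, Kcng4, Kcnab1 and Kcnj3 (adjusted p = 0.0273, 0.0298, 0.0293 and 0.0416), where 2.37% of all probe sets passed, and the adjusted p of the other 7 ran from 0.0535 to 0.279. Leaving out single arrays ended the calls on Kcnj2 (adjusted p = 0.0949 and 0.0679 without wild type array 1 or 2, 0.0811 and 0.0712 without transgenic array 2 or 3), Kcnu1 (0.0556 and 0.101 without wild type array 2 or 3, 0.0507 and 0.0743 without transgenic array 2 or 3), Kcna10 (0.113 and 0.164 without wild type array 1 or 3, 0.0814 and 0.174 without transgenic array 1 or 3) and Kcnn2 (0.0911 and 0.196 without wild type array 1 or 2, 0.157 and 0.102 without transgenic array 1 or 2). The call on Kcna10 also ended with arrays centred on their medians (0.0551) and with array weights (0.0624).

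**Figure D3:**
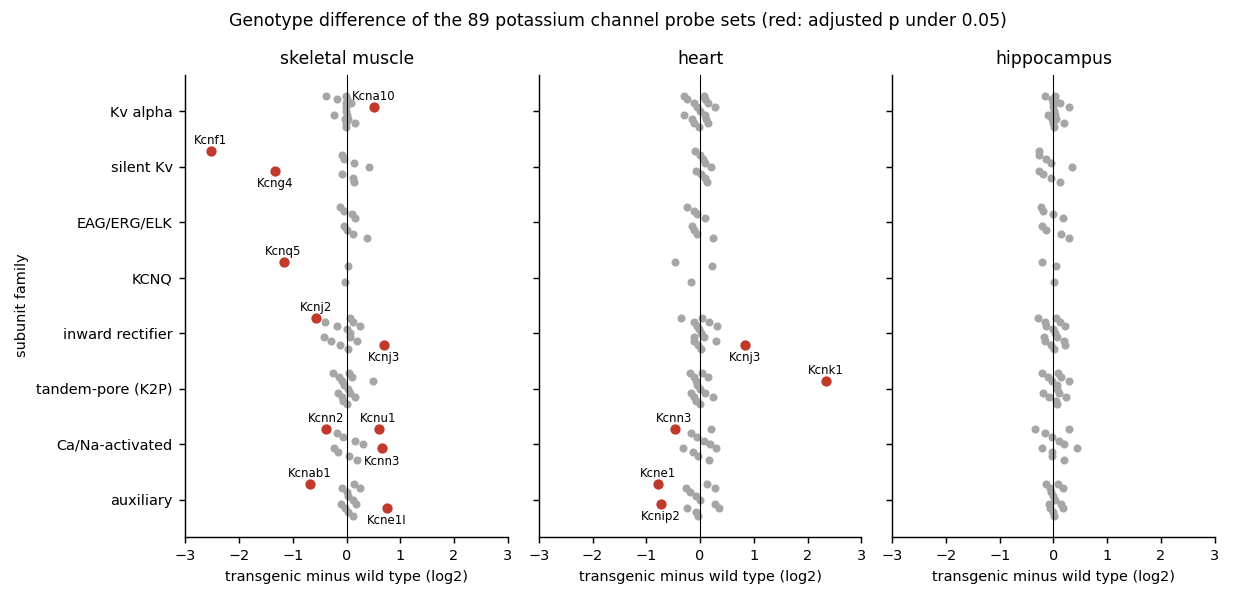
Transgenic minus wild type difference (log2) of every member in each tissue, by subunit family. Red points are the called members: 11 in skeletal muscle, 5 in heart and 0 in hippocampus; Kcnf1 lies furthest below 0 in muscle and Kcnk1 furthest above 0 in heart.

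In heart, 5 members were called, Kcnk1 and Kcnj3 higher and Kcnip2, Kcne1 and Kcnn3 lower in transgenic mice. They were 5.62% of members, where 3.19% of all probe sets were called (1.57% higher and 1.62% lower), and the median difference was −0.01 over members and 0.003 over all probe sets. With only probe sets of 1 symbol tested, 7 members and 6.07% of probe sets were called. Kcnk1 was at 1.97, 2.20 and 2.59 on the wild type heart arrays and 3.71, 4.94 and 5.15 on the transgenic ones. All wild type arrays were under the array median and all transgenic arrays above it, with transgenic array 1 nearest to the wild type group. The difference was 2.35 ± 0.30 (adjusted p = 4.34e-04, limma), and its size is not read exactly. In muscle the same gene was at 2.31, 2.19 and 2.66 in wild type and 2.91, 2.46 and 3.30 in transgenic mice, groups that overlapped (0.50 ± 0.30, adjusted p = 0.412). In hippocampus it was at 8.65, 8.63 and 8.61 in wild type and 8.58, 8.63 and 8.58 in transgenic mice, again overlapping.

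Auxiliary subunits of 2 repolarising currents fell in heart. Kcnip2, without which the transient outward current is lost, was at 7.51, 7.70 and 7.49 in wild type and 6.97, 6.76 and 6.79 in transgenic heart. The groups were apart by more than their own ranges, and the level was 1.66-fold lower (−0.73 ± 0.09, adjusted p = 3.91e-04, limma). Its pore partners did not pass, with Kcnd2 at 7.21 ± 0.13 and 7.19 ± 0.14 (SD, −0.01 ± 0.12, adjusted p = 0.98) and Kcnd3 at 5.43 ± 0.10 and 5.19 ± 0.07 (−0.24 ± 0.09, 0.188), although all 3 transgenic arrays were below all 3 wild type arrays for this probe set of Kcnd3. The second probe set of Kcnd3 went the other way, from a mean of 2.91 in wild type to 3.06 in transgenic heart. Its groups overlapped and it did not pass. Kcne1, the auxiliary subunit of the slow delayed rectifier, was at 4.453, 4.184 and 4.997 in wild type and 3.841, 3.520 and 3.911 in transgenic heart, and fell by 0.79 ± 0.19 (adjusted p = 0.032). Wild type array 3 was the highest. Its pore, Kcnq1, was at 7.14, 6.90 and 7.11 in wild type and 6.59, 6.58 and 6.60 in transgenic mice, with the groups apart, and was just outside the threshold (−0.46 ± 0.12, adjusted p = 0.0548). Kcnq1 passed with arrays centred on their medians (0.0496), without dim probe sets (0.0257) and among probe sets with 1 symbol (0.0255). In the fit to the heart arrays alone it did not pass (0.149).

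A subunit of the acetylcholine-gated channel rose in heart. Kcnj3 was at 6.89, 7.02 and 6.79 in wild type and 7.61, 7.85 and 7.75 in transgenic heart, with the groups well apart, a 1.79-fold higher level (0.84 ± 0.10, adjusted p = 2.48e-04, limma). Its partner Kcnj5 was at 7.12, 6.88 and 7.15 in wild type and 7.24, 7.51 and 7.35 in transgenic mice, also without overlap, and did not pass (0.32 ± 0.14, adjusted p = 0.292). Both genes are stronger in atrial than in ventricular muscle. Of the 6 atrial markers measured, Kcnj3 among them, 2 rose in heart and none fell, the other being Nppa at 1.36 ± 0.15 (adjusted p = 1.87e-04). Over all probe sets 3.19% were called in heart, and 6.07% with only those of 1 symbol tested. Myl7 (0.25 ± 0.61, 0.913), Myl4 (0.50 ± 0.60, 0.794) and Sln (0.37 ± 0.22, 0.496) did not pass, and Bmp10 was dim in both genotypes (1.67 ± 0.35 and 1.64 ± 0.39, SD). The mean level of the 6 markers ran from 5.10 to 6.13 on wild type and 5.52 to 6.73 on transgenic heart arrays, ranges that overlap, and the part of atrial content in the Kcnj3 difference was not tested.

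Kcnn3, which rose in muscle, was at 3.10, 2.94 and 3.29 in wild type and 2.48, 2.66 and 2.78 in transgenic heart and fell by 0.47 ± 0.12 (adjusted p = 0.0436, limma). The transgenic mean of 2.64 was close to the array median of heart (2.62), so the size of this fall is not read exactly. Of the 15 measured members of a list of cardiac repolarisation genes, which Kcnip2, Kcne1 and Kcnj3 belong to, 1 rose, 2 fell and 12 did not pass, where 3.19% of all probe sets were called, and the median difference was 0.07. Those that did not pass included the rapid delayed rectifier pore Kcnh2 (0.24 ± 0.11, adjusted p = 0.335), Kcna5 (0.27 ± 0.19, 0.573), the inward rectifiers Kcnj2 (−0.35 ± 0.14, 0.248) and Kcnj12 (0.29 ± 0.17, 0.492), the KATP pores Kcnj8 (0.16 ± 0.19, 0.779) and Kcnj11 (−0.10 ± 0.11, 0.75) and the leak channel Kcnk3 (0.14 ± 0.11, 0.634). For Kcnh2 all 3 transgenic arrays were above the wild type arrays, and for Kcnj2 all were below. Groups that do not overlap were found for 22 members in heart (24.7%, where 18.5% of all probe sets did not overlap), 18 in muscle (20.2%, against 21.9%) and 17 in hippocampus (19.1%, against 13.3%).

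Fitted to the 6 heart arrays alone, limma called none of the 5 (adjusted p of 0.0624 to 0.239), where 0.102% of all probe sets passed. In that fit 15 members had an unadjusted p under 0.05 (16.9%, against 12% of all probe sets). In the fit to all tissues, 14 members did in heart, a share close to that of all probe sets (15.7%, against 15%). With all tissues in the fit, 3 members were called without wild type array 1 or 3 or without transgenic array 1, 2 or 3: the calls on Kcne1 (adjusted p = 0.0682, 0.108, 0.0562, 0.123 and 0.0574) and Kcnn3 (0.108, 0.154, 0.14, 0.0996 and 0.0553) ended in each of these, and that on Kcnn3 also with array weights (0.0674).

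**Figure D4:**
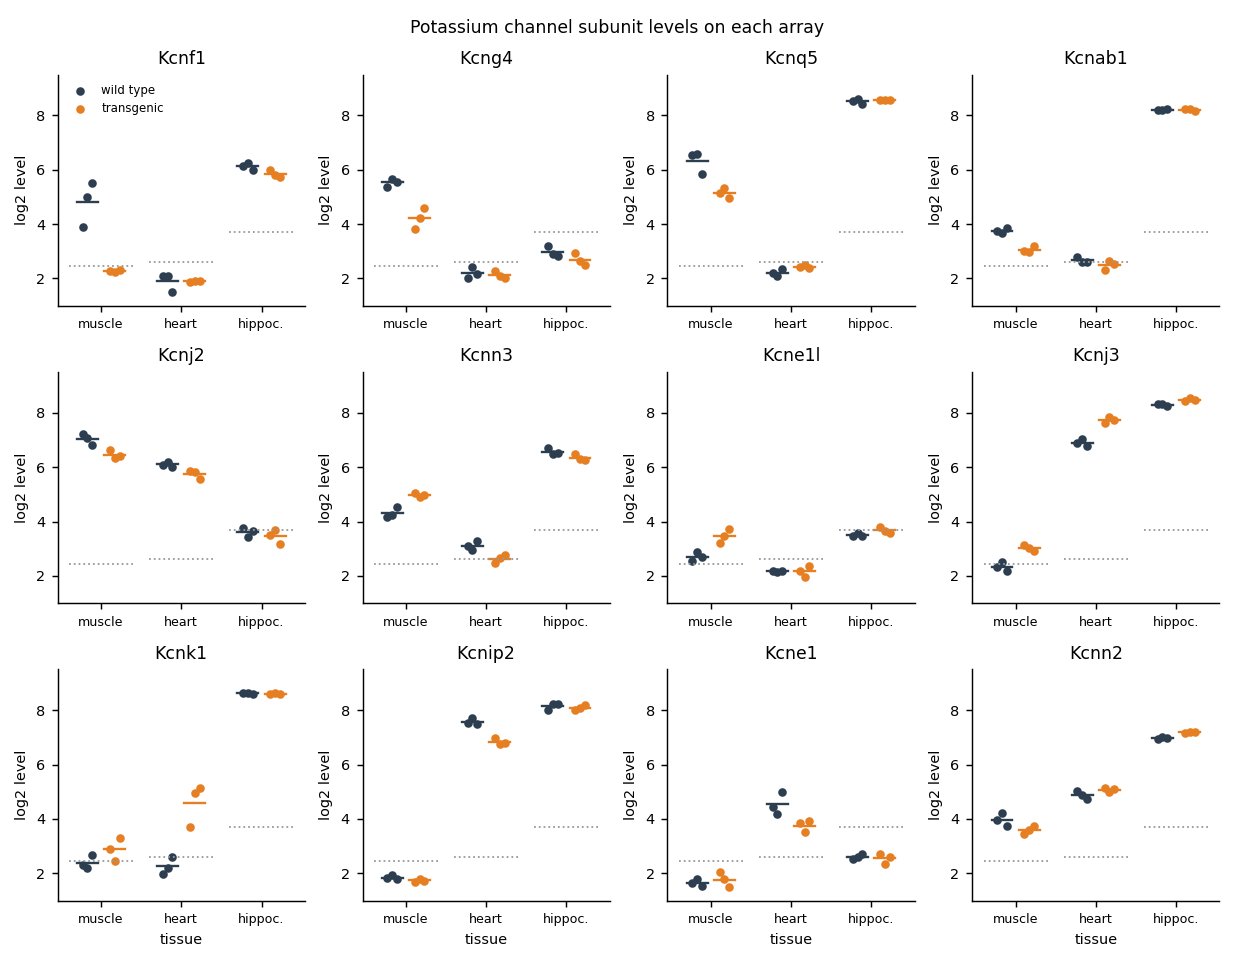
Log2 level of 12 members on each array, by tissue (points; wild type dark, transgenic orange; bars, mean of 3 arrays; dotted line, array median of the tissue). In muscle the Kcnf1, Kcng4, Kcnq5, Kcnab1 and Kcnj2 points of the transgenic mice lie below all wild type points, and in heart the Kcnk1 and Kcnj3 points lie above and the Kcnip2 and Kcne1 points below.

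In hippocampus, where the most members were above the array median, limma called 0 of the 89 members and 0% of all probe sets. At an unadjusted p under 0.05 there were 8 members (8.99%, against 5.04% of all probe sets). The smallest p was that of the BK pore Kcnma1, which was at 8.38, 8.39 and 8.19 in wild type and 8.67, 8.77 and 8.81 in transgenic mice, groups that did not overlap (0.43 ± 0.11, adjusted p = 0.562). The others were the silent subunits Kcns2 (−0.26 ± 0.10) and Kcnv1 (0.34 ± 0.15), the sodium-activated channel Kcnt2 (0.28 ± 0.12), Kcnn1 (−0.34 ± 0.15), Kcnk6 (0.28 ± 0.12), Kcnh4 (0.29 ± 0.13) and 1 of the 2 probe sets of Kcnh8 (−0.23 ± 0.09), with an adjusted p of 0.913 to 0.974. Differences over all members ran from −0.34 to 0.43. Members that changed in striated muscle had hippocampal differences of −0.03 ± 0.30 for Kcnk1, −0.05 ± 0.09 for Kcnip2, −0.27 ± 0.18 for Kcng4 and −0.28 ± 0.28 for Kcnf1. Kcnj3, called in both striated tissues, was at 8.31, 8.32 and 8.26 in wild type and 8.45, 8.55 and 8.45 in transgenic hippocampus, with no overlap, and did not pass (0.19 ± 0.10, adjusted p = 1).

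Muscle and heart shared 2 called members, Kcnj3 and Kcnn3, which are 18.2% of the 11 called in muscle and 40% of the 5 called in heart. Kcnj3 rose in both, and Kcnn3 rose in muscle and fell in heart. The genotype difference itself differed between the 3 tissues for 8 members (8.99%, where 3.89% of all probe sets were called): Kcnn3, Kcnf1, Kcnq5, Kcnk1, Kcnip2, Kcnab1, Kcng4 and Kcnj3. Heart and muscle differed from each other in 7 (7.87%, against 2.55% of all probe sets). With only probe sets of 1 symbol tested, 10 members were called in each of these tests. The shares of such probe sets were 7.77% for the 3 tissues and 5.12% for heart against muscle. For Kcnn3 the genotype difference was 1.13 ± 0.17 lower in heart than in muscle (adjusted p = 0.0019, limma), and for Kcnip2 it was 0.63 ± 0.13 lower (0.0144), as was that of Kcne1l by 0.74 ± 0.18 (0.0424). It was higher in heart by 2.53 ± 0.40 for Kcnf1 (0.00277), 1.85 ± 0.42 for Kcnk1 (0.0288), 1.40 ± 0.22 for Kcnq5 (0.00304) and 1.26 ± 0.25 for Kcng4 (0.0144). For Kcnf1, Kcnq5 and Kcng4 the heart level was dim in both genotypes, and for Kcnip2 the muscle level (1.84 ± 0.08 and 1.74 ± 0.06, SD), so that a fall could not have been read there. Kcne1l, which rose in muscle, was dim in both genotypes in heart as well. The difference for Kcnj3 was 0.15 ± 0.14 between heart and muscle and did not pass (0.701), with the wild type muscle level dim.

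Hippocampus differed from muscle in the genotype difference of 5 members (5.62%, against 3.4% of all probe sets), namely Kcnf1, Kcnq5, Kcnab1, Kcng4 and Kcnn3, and from heart in that of 3 (3.37%, against 0.582%), namely Kcnk1, Kcnip2 and Kcnj3. Kcnq5 and Kcnab1 were above the array median in both genotypes of both tissues, and Kcnf1 in all but transgenic muscle, whereas Kcng4 was dim in hippocampus (2.96 ± 0.19 and 2.69 ± 0.22, SD), where a fall could not have been read. The genotype difference in hippocampus exceeded that in muscle by 1.22 ± 0.22 for Kcnq5 (adjusted p = 0.00627, limma), 0.69 ± 0.13 for Kcnab1 (0.00805) and 2.25 ± 0.40 for Kcnf1 (0.005). The heart minus muscle call on Kcne1l ended without any of wild type muscle array 1 or 3, transgenic muscle array 2 or 3, the 3 wild type heart arrays or transgenic heart array 1 or 2 (adjusted p of 0.0702 to 0.1), and with centring (0.0508), quantile normalization (0.0509), an intensity trend with a robust prior (0.052) and array weights (0.0567). That on Kcnk1 ended without wild type muscle array 1 or 3, transgenic muscle array 1 or 2, wild type heart array 1 or 2 or transgenic heart array 2 or 3 (0.0511 to 0.0754) and with quantile normalization (0.0549). With only the arrays of both striated tissues the calls on Kcnk1 (0.128), Kcnip2 (0.0515) and Kcne1l (0.141) ended. The 3-tissue call on Kcnj3 ended without wild type hippocampus array 1, 2 or 3 (0.0619, 0.0649 and 0.05) or transgenic hippocampus array 1 or 3 (0.0683 and 0.0669), and that on Kcng4 without wild type muscle array 2 (0.053).

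The start regions of some called genes are shown because clock genes also changed in muscle and heart, so that motifs of clock factors could be looked for. RefSeq sequences of assembly GRCm38.p6, from 250 bases before to 50 after an annotated start site, were found for 67 of the 87 genes, 92 start sites in all, each 300 bases long. They were searched on both strands for the clock E-box CACGTG, the D-box TTATGTAA of clock output factors and the letters CCACCC that Krüppel-like factors bind, motifs chosen after the values were seen and with no overlap between them in the sequences printed. The E-box was in 7 of the 92 regions (7.61%), from 6 genes, and in 7.15% of all 32851 regions. The D-box was in 0 of 92 and in 0.938% of all. CCACCC was in 52 of 92 (56.5%), from 43 genes, and in 31.5% of all. Of the genes called in muscle or heart, Kcnab1 (2 of its 3 start sites) and Kcnj2, both lower in transgenic muscle, held an E-box, starting at −162 and −45 from the start sites of Kcnab1 and at −84 from that of Kcnj2. CCACCC was held by 5 of the called genes, with 2 matches in Kcnip2 and Kcnn3 and 1 in Kcng4, Kcne1l and Kcna10, some of which rose and some of which fell. The called genes Kcnab1, Kcnf1, Kcnj2, Kcnj3, Kcnk1 and Kcnq5 had start regions without it. Over all members 43 of the 67 genes with a region held it. Kcnf1 and Kcnk1, with the largest fitted differences in muscle and heart, held none of the motifs. In the sequences, which run 5′ to 3′ on the strand of the gene, capitals mark the motif matches of either strand.
Kcnab1, chr3:65108764-65109063 (plus strand): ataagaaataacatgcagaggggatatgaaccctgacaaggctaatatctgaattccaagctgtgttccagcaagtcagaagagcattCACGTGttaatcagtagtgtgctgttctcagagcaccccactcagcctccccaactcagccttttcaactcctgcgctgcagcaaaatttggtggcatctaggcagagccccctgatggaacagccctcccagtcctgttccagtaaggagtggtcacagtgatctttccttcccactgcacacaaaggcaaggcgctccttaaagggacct
Kcnab1, chr3:65187853-65188152 (plus strand): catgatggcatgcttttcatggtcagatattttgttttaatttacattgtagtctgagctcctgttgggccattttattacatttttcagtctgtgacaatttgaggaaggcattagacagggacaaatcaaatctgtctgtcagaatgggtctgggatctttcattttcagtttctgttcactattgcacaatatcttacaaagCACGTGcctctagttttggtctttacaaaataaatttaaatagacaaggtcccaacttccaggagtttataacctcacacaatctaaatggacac
Kcnj2, chr11:111065914-111066213 (plus strand): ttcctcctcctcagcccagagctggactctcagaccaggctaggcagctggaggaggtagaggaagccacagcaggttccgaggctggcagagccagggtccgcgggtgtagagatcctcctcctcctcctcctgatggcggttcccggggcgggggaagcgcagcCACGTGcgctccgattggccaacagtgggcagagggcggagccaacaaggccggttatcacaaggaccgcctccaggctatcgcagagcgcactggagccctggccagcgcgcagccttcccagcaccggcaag
Kcnip2, chr19:45816014-45816313 (minus strand): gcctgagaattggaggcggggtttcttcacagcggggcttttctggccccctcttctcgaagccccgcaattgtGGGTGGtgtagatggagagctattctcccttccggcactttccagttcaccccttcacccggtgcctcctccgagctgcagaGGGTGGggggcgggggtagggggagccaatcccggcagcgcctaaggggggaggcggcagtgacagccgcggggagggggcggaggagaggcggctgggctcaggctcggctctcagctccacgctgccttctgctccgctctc
Kcnf1, chr12:17176839-17177138 (minus strand): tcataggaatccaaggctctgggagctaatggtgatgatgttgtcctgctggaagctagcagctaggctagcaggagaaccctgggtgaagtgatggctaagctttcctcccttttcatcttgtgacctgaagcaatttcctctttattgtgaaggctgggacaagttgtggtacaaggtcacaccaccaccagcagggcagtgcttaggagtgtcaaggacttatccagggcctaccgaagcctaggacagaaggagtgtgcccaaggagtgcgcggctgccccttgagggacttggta
Kcnk1, chr8:125994852-125995151 (plus strand): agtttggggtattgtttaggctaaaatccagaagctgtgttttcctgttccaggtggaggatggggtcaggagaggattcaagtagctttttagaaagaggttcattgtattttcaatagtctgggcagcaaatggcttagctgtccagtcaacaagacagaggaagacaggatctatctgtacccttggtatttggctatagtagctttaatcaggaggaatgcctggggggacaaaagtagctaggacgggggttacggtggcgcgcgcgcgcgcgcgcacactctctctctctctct

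Proteins that assemble with potassium channels but carry other names were taken from a list of 19 genes, 18 of them measured. In muscle 3 fell, none rose and 15 did not pass. Of all probe sets 8.15% were called in muscle, and 14.1% with only those of 1 symbol tested. Lrrc38, an auxiliary gamma subunit of the BK channel, was at 6.80 ± 0.41 in wild type and 5.56 ± 0.21 in transgenic muscle (SD, −1.24 ± 0.19, adjusted p = 5.75e-04, limma), while the pore Kcnma1 was at 6.92 ± 0.18 and 7.11 ± 0.08. Another member of that gamma family, Lrrc52, fell from 3.50 ± 0.36 to 2.42 ± 0.12 (−1.08 ± 0.27, 0.019) and stood at −0.90 ± 0.27 in heart without passing (0.0905). Its transgenic muscle mean was under the array median (2.45), so the size of that fall is not read exactly. Dlg1, a scaffold that clusters Kv and inward rectifier channels, fell by 0.48 ± 0.08 (0.00123). In heart only Abcc9, the KATP receptor, passed, and it fell by 0.49 ± 0.08 (0.00364), with neither Kcnj8 nor Kcnj11 called. The shares called in heart were 3.19% of all probe sets and 6.07% with only those of 1 symbol tested. None of the 18 passed in hippocampus, where the median difference was −0.01.

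Transcription factors known to act on potassium channel genes were also read. Of 6 measured, Arntl, the clock activator, fell in muscle (−2.74 ± 0.17, adjusted p = 1.68e-07, limma) and in heart (−2.57 ± 0.17, 1.89e-06). Klf15, a clock-controlled factor that activates Kcnip2, was at 6.07 ± 0.17 in wild type and 5.80 ± 0.23 in transgenic heart (SD) and did not pass (−0.27 ± 0.16, 0.488). Irx3 (0.46 ± 0.15, 0.133), Irx5 (−0.01 ± 0.21, 0.991), Tbx5 (0.42 ± 0.12, 0.0788) and Rest (0.07 ± 0.15, 0.899) did not pass in heart either. Of 14 measured clock genes 7 rose and 5 fell in muscle, 9 rose and 4 fell in heart, and none passed in hippocampus. No probe set of the array was called in hippocampus, so sharing these tissues with the called channel members links no genes. Endothelial markers differed in muscle and heart too. In muscle 4 of 7 fell (Tek, Cldn5, Egfl7 and Emcn), with a mean level of 6.58 to 6.69 on wild type and 5.81 to 6.31 on transgenic arrays, and in heart 2 of 7 (Tek and Cldn5), with 7.70 to 7.76 and 7.10 to 7.41. The 7 smooth muscle and pericyte markers, Kcnj8 and Abcc9 among them, had 0 and 1 (Abcc9) called, and overlapped in mean level (6.80 to 7.03 and 6.65 to 6.95 in muscle, 7.19 to 7.21 and 7.10 to 7.23 in heart). Beside the counts of these lists, 8.15% of all probe sets were called in muscle and 3.19% in heart. With only probe sets of 1 symbol tested, the shares were 14.1% and 6.07%. The part of the clock or of endothelial content in the channel differences was not tested.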

How the data were processed

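All 18 arrays were used, in 6 groups of 3. The deposited values are log2 signals, 1 per probe set and array, which the authors made with RMA (R 2.10.0), according to the submitters' processing notes. The sources used here give no chip definition or filter, nor whether the arrays were normalized jointly. The number of arrays limits the precision.

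Groups came from the titles. All 35382 probe sets were fitted in limma 3.58.1 (R 4.3.3), each group with its own mean, with 12 residual and 2.67 prior degrees of freedom. Tests were two-sided, and p-values were Benjamini-Hochberg adjusted over all probe sets. A gene with several probe sets is represented by the one with the highest mean. Entrez IDs of all 87 genes matched RefSeq (GRCm38.p6). Named were all called members, the 10 with the smallest p in hippocampus, the 6 highest and 6 lowest in each pair of tissues, the brightest 10 of each tissue and a fixed set. Members, lists and tests were chosen with earlier results of these data known. Alternatives were the arrays in the fit, replicate blocks, scalings, filters, priors, weights, thresholds and leaving out each array. The procedure was tested on simulated data. Figures used matplotlib 3.10.9.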

Additional observations from a re-analysis of the deposited data

Results flagged for a closer look

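The genotype difference varied with tissue for 8 members, by limma's test of the interaction of genotype and tissue. For Kcnn3 (adjusted p = 0.00264) the 3 transgenic arrays were all above wild type in muscle and all below in heart. Its transgenic heart mean (2.64) was close to the array median. For Kcnf1 (0.00274), Kcnq5 (0.00324), Kcng4 (0.0175) and Kcnab1 (0.015) the fall was called in muscle only, but Kcnf1, Kcnq5 and Kcng4 were dim in heart, and Kcng4 in hippocampus, in both genotypes, so that a fall there could not have been read. In heart Kcnab1 was just above the array median in wild type (2.68) and under it in transgenic mice (2.49), which left little room to read a fall. For Kcnk1 (0.00812) and Kcnip2 (0.00814) the difference was called in heart only, but Kcnip2 was dim in muscle in both genotypes, so that a fall there could not have been read, and for Kcnj3 (0.0249) a rise was called in muscle and heart and not in hippocampus, where the transgenic arrays were also all above the wild type ones (0.19 ± 0.10).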

How the results depend on the processing

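Of the 174 values named for a member in a comparison, 146 kept their direction and their side of the threshold under every alternative run and 28 did not under at least 1. Direction turned for 3 of them, all between hippocampus and a striated tissue in wild type mice: Kcnc4 against muscle at −0.53 with arrays centred (adjusted p = 0.00317, limma) and −0.43 with quantile normalization (0.0188), Kcnip2 against heart at −0.50 (0.00014) and −0.22 (0.0616), and Kcnc1 against muscle at −0.053 with arrays centred (0.66). Over all 89 member probe sets, centring turned the direction of 23 calls between hippocampus and muscle, 17 of them called the other way, and of 12 between hippocampus and heart, 9 called the other way. Quantile normalization turned 16 and 7, of which 6 and 0 were called. With only the arrays of the groups compared in the fit, the members called in muscle numbered 4 (2.37% of all probe sets were called), in heart 0 (0.102%) and in the difference between heart and muscle 4 (1.13%); fewer arrays leave fewer degrees of freedom. At an adjusted p under 0.01, which is stricter by construction, there were 7 in muscle (4.54% of all), 3 in heart (1.12%), 5 in the interaction (1.64%) and 3 in the difference between heart and muscle (1.05%). With the replicate number as a block the interaction was called for 5 members (1.61% of all), and muscle, heart and hippocampus had 9 (5.96%), 4 (1.48%) and 0 (0%), and the difference between heart and muscle 6 (1.11%). Under the block Kcnu1, Kcna10 and Kcnn2 in muscle (adjusted p = 0.0684, 0.127 and 0.114), Kcnn3 in heart (0.0676), Kcnip2, Kcnj3 and Kcnab1 in the interaction (0.0557, 0.0677 and 0.0925) and Kcnip2 and Kcne1l in the difference between heart and muscle (0.0663 and 0.0735) were no longer called, and Kcnj12 in muscle was (0.0224). Same-numbered arrays of the 2 genotypes correlated in their deviations from the group means at −0.03 to 0.04, and same-numbered arrays of 2 tissues at −0.05 to 0.05. These correlations run over all probe sets, dim ones included, and cannot settle whether the numbers pair the samples. The same number across tissues as a random block changed no count. Leaving out each array in turn gave 8 to 13 members in muscle (6.39% to 7.47% of all probe sets), 3 to 5 in heart (1.68% to 2.8%), 0 in hippocampus (0%), 7 to 9 in the interaction (2.63% to 3.72%), 5 to 7 in the difference between heart and muscle (1.83% to 2.28%), 35 to 38 between wild type heart and muscle (34.7% to 35.9%), 82 to 85 between hippocampus and muscle (74.3% to 75.1%) and 81 to 83 between hippocampus and heart (72.9% to 74.1%). The interaction of all 3 tissues was not run with fewer tissues or a fold threshold. Dim signal limits 4 of the 11 muscle differences and 1 of the 5 heart differences. The fall of Kcnn3 in heart ended close to the array median.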

Other observations

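Some potassium channel genes lie next to each other in RefSeq's order of protein-coding genes and differed in tissue profile. Kcnj16 and Kcnj2 are neighbours, and Kcnj16 was at 1.51 ± 0.19, 1.48 ± 0.05 and 5.57 ± 0.28 in wild type muscle, heart and hippocampus (SD, n = 3), whereas Kcnj2 was at 7.03 ± 0.21, 6.10 ± 0.10 and 3.61 ± 0.16. Kcna5, the ultra-rapid delayed rectifier of heart, lies beside the neuronal gene Kcna1. Kcna5 was at 3.60 ± 0.41, 3.94 ± 0.35 and 2.45 ± 0.19 in these tissues, and Kcna1 at 3.56 ± 0.14, 3.68 ± 0.10 and 8.64 ± 0.01. Kcnj8 lies beside Abcc9 and Kcnj11 beside Abcc8, pairs that encode the pore and the receptor of KATP channels. Both Kcnj8 and Abcc9 were lowest in hippocampus, and so was Kcnj11. Abcc8 was above muscle in heart and in hippocampus under every scaling, but its order between hippocampus and heart turned with it (0.76 ± 0.16 as deposited, −0.33 with centred arrays and −0.20 with quantile normalization). These pairs were chosen after their values were seen, and the sharing of a neighbourhood was not tested against other genes.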
